A study of Coturnix japonica with 24 samples.

Results

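Long days were compared with short days in the late hours of the day in the mediobasal hypothalamus of male Japanese quail (Coturnix japonica), the floor of the hypothalamus above the pituitary stalk. The comparison took 8 of the 24 arrays of the study: 4 from long days, with 2 arrays each at ZT18 and ZT22, and 4 from short days at the same times. ZT was read as hours after lights on, which the labels do not spell out. For 2 weeks, long-day birds were lit for 20 h and in the dark for 4 h of each day, so that ZT18 was lit and ZT22 was dark for them, while short-day birds, lit for 6 h and dark for 18 h, were in the dark at both times. All birds had lived under short days for 4 weeks beforehand and were 8 weeks old when they were divided between the photoperiods, before those 2 weeks. Each array held RNA pooled from 3 birds, and the 2 arrays of a group are given as biological replicates in the labels. The p-values therefore rest on the spread between such pools, not between single birds. In the late test, the residual spread also held any difference between ZT18 and ZT22 in the size of the photoperiod change. That test had no term for the replicate number, so differences between replicate numbers were part of the spread too. The other 16 arrays, taken at ZT2, ZT6, ZT10 and ZT14, gave separate values in which the size of the same change could be looked up.

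The photoperiodic response of this tissue is known to begin in the pars tuberalis of the pituitary stalk. There, thyrotropin, a heterodimer of a specific beta chain (TSHB) and the alpha chain it shares with the gonadotropins (CGA), is made on long days and acts on tanycytes, the elongated ependymal cells that line the third ventricle. Tanycytes answer by making more of the deiodinase that activates thyroid hormone (DIO2) and less of the one that degrades it (DIO3), and the local supply of active hormone governs the release of gonadotropin-releasing hormone. Mammalian pars tuberalis reads the length of the night through melatonin, whereas in birds light reaches photoreceptors deep in the brain.

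The arrays carry chicken probes and were hybridised with quail RNA, so levels were compared only within a probe set. Values below are scaled intensities: the deposited intensity plus a pseudocount of 1.497, centred on each array's median and returned to a linear scale. The background was the 95th percentile of 746 probe sets whose names lack the chicken prefix, between 18.1 and 20.7 on the late arrays. A mean of 44.8 ± 1.78% of probe sets exceeded it in long days and 45.1 ± 2.22% in short days (SD, n = 4 each), and no difference in this share, in the median intensity or in the 3′/5′ ratio of the ACTB and GAPDH control probes was found by an exact permutation test (4 against 4, two-sided, p from 0.486 to 0.886, smallest possible 0.0286). POMC, NPY, AGRP and VIP, peptide genes of the hypothalamus, exceeded background on all 8 late arrays. In pooled tissue, fewer cells of a type and less RNA per cell cannot be told apart.

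Between long and short days, 17 of 38439 probe sets differed in the late hours (0.0442%, limma with ZT as a covariate, Benjamini-Hochberg adjusted p under 0.05). Of these, 12 (0.0312%) were higher and 5 (0.013%) lower in long days, and the split was 7 against 1 where arrays were not centred. The 4 long-day values lay wholly above or wholly below the 4 short-day values in each of the 17, as they did in 1403 probe sets or 3.65% of the array (2.14% higher, 1.51% lower). An unadjusted p under 0.05 was found for 5.56%. The 17 included probe sets of 13 named genes. In 11 of these genes the brightest probe set passed, while EPAS1 and RPL19 passed by a dimmer probe set only. TSHB, CGA, DNAJA1, KLF9, EPAS1, DIO2, CCK, CALCA and STON2 rose, and DIO3, RPL19, POMC and CCNG2 fell. The smallest change among the 17 was 1.03 log2 units. Simulated data held 100 changed probe sets for each size of change in each brightness group. The fit recovered 69% of changes of 2 log2 units but 8% of changes of 1 log2 unit among the brightest probe sets (the upper of 4 equal groups by mean). In the group below it recovered 19% and 0%, so most changes of 1 log2 unit would not have been seen. Of the calls, 8 held when any 1 of the 8 arrays was left out (DIO3, CGA, TSHB, DNAJA1, KLF9, EPAS1, DIO2 and a probe set without a symbol), and the other 9 did not. The count also rests on limma's mean-variance trend. Without that trend 0 probe sets had an adjusted p under 0.05 (smallest 0.136), although 2141 had an unadjusted p under 0.05, among them all 17 (largest p 0.00617).

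**Figure D1:**
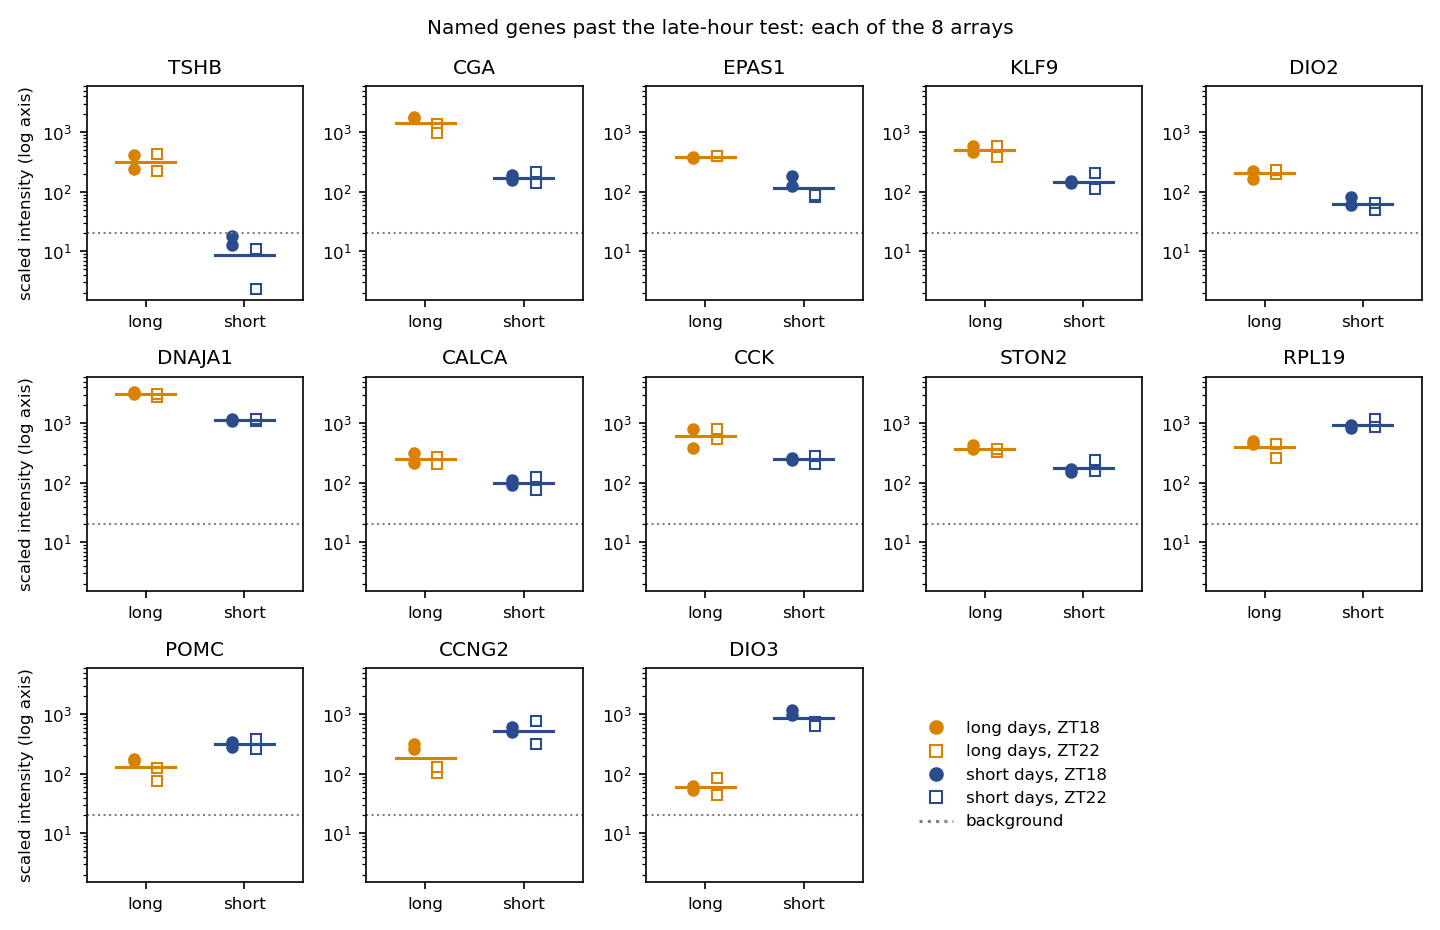
Scaled intensity (log axis) of the 13 named genes on each of the 4 long-day and 4 short-day arrays at ZT18 and ZT22. EPAS1 and RPL19 are shown by their dimmer probe sets. Points are arrays, bars are geometric means and the dotted line is the background. The 2 groups do not overlap in any panel, and the 4 short-day values of TSHB, between 2.33 and 18.0, lie below background.

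Both chains of thyrotropin rose in late long days. TSHB, the beta chain that gives the hormone its specificity, had 413 and 245 at ZT18 and 430 and 225 at ZT22 in long days, against 12.7 and 18.0 at ZT18 and 2.33 and 11.03 at ZT22 in short days. None of the 4 short-day arrays exceeded background (0 of 4), so the change has only a lower bound. TSHB was at least 16.4-fold higher in long days. Its adjusted p of 1.8e-05 (limma) belongs to the fitted difference, which used the short-day values below background, and not to this bound. The 2 long-day arrays of each time differed from each other by more than the 2 times did. CGA, the common alpha chain, had 1797 and 1767 at ZT18 and 1403 and 990 at ZT22 in long days, against 189 and 155 at ZT18 and 218 and 143 at ZT22 in short days. All 8 arrays exceeded background and the lowest long-day array stood well above the highest short-day one. The means were 1489 ± 378 in long days and 176 ± 34.1 in short days (SD, n = 4 each), 8.33-fold higher in long days, or 3.06 ± 0.19 log2 units (SE, adjusted p = 1.2e-07, limma).

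Of the 14 measured genes on a list of thyrotropin and pars tuberalis genes, 2 passed the test, both higher (0.0846% of the 13009 genes represented on the array passed), 4 were higher with an unadjusted p under 0.05, 7 had a positive difference and the median difference was 0.11 log2 units, against 0.03 over all genes. CHGA, a protein of secretory granules, averaged 634 ± 22.1 in long days and 511 ± 64.9 in short days, a difference of 0.32 ± 0.14 log2 units that did not pass (adjusted p = 0.88, limma). MTNR1B, a melatonin receptor, averaged 39.4 ± 6.45 in long days and 21.8 ± 7.34 in short days (adjusted p = 0.85). The long-day and short-day arrays did not overlap in either gene, as in 3.65% of all probe sets. Both had an unadjusted p under 0.05, as did 5.56% of all probe sets. TSHR, the receptor for thyrotropin, averaged 60.1 ± 24.7 in long days and 71.9 ± 19.9 in short days, with overlapping arrays. EYA3, a transcriptional co-activator of TSHB in mammals, exceeded background on 1 of 4 long-day and on 4 of 4 short-day arrays, at 18.1 ± 8.22 and 29.6 ± 6.00, and did not pass either.

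CGA and TSHB are also made in the anterior pituitary, and whether such cells in the tissue block take part in the change was not tested. On a list of 12 measured genes of the anterior pituitary, which itself contains CGA, TSHB and POMC, no member beyond these 3 passed. Growth hormone (GH) averaged 17.3 ± 10.2 in long days and 11.04 ± 6.38 in short days, prolactin (PRL) 21.9 ± 7.26 in long days and 19.0 ± 10.1 in short days, near background in both. POU1F1, the transcription factor of the growth hormone, prolactin and thyrotropin cells of the anterior lobe, and GHRHR exceeded background on 0 of 8 arrays, and FSHB on 1. The summed level of the list ranged over the arrays from 2479 to 3331 in long days and from 1470 to 1659 in short days. That sum includes CGA, which alone averaged 1489 in long days and 176 in short days, and also TSHB and POMC. It is therefore no measure of pituitary tissue apart from these genes.

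The 2 deiodinases moved in opposite directions. DIO3, which inactivates thyroid hormone, had 53.5 and 62.4 at ZT18 and 44.2 and 85.8 at ZT22 in long days, against 1170 and 976 at ZT18 and 730 and 646 at ZT22 in short days. It was the most significant probe set of the comparison: long-day arrays averaged 61.5 ± 17.8 and short-day arrays 880.4 ± 238, and DIO3 fell by 3.84 ± 0.22 log2 units (adjusted p = 7.3e-08, limma), 14.4-fold lower in long days. DIO2, which converts the prohormone to active thyroid hormone, had 228 and 162 at ZT18 and 202 and 235 at ZT22 in long days, against 61.3 and 81.8 at ZT18 and 50.2 and 64.5 at ZT22 in short days. The lowest long-day array, at 162, stood above the highest short-day array, at 81.8, and the difference was 1.69 ± 0.22 log2 units (adjusted p = 0.0027). A second, dim DIO2 probe set exceeded background on 3 of 4 long-day and 0 of 4 short-day arrays; its long-day mean was 20.2 ± 4.84, its short-day mean 10.8 ± 4.32, and it did not pass.

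KLF9, a transcription factor gene that both thyroid hormone and glucocorticoids induce, had 464 and 586 at ZT18 and 388 and 582 at ZT22 in long days, against 154 and 139 at ZT18 and 112 and 204 at ZT22 in short days. It rose by 1.74 ± 0.20 log2 units (adjusted p = 7.6e-04, limma) and the groups were far apart on every array. Of the 15 measured genes of thyroid hormone metabolism, transport and action, DIO2, DIO3 and KLF9 passed (2 higher and 1 lower), 9 had a positive difference, and the median was 0.03 log2 units, the same as over all genes. SLCO1C1, a thyroxine transporter of the brain's capillaries, averaged 624 ± 41.1 in long days and 579 ± 187 in short days. SHH, a developmental signalling gene, averaged 104 ± 15.2 in long days and 139 ± 29.2 in short days, and did not pass (adjusted p = 0.91). The receptor genes THRA and THRB, and DIO1, lay at or below background on nearly all arrays, where this array says little about them.

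DNAJA1 encodes a cytosolic co-chaperone that hands unfolded proteins to the heat shock protein HSP70. It had 3133 and 3334 at ZT18 and 2807 and 3132 at ZT22 in long days, against 1076 and 1171 at ZT18 and 1104 and 1184 at ZT22 in short days. Replicates were close together, and DNAJA1 rose by 1.45 ± 0.13 log2 units (adjusted p = 2.1e-05, limma), with means of 3102 ± 218 in long days and 1134 ± 52.1 in short days. A dimmer DNAJA1 probe set differed by 0.97 ± 0.37 log2 units and did not pass (adjusted p = 0.85). DNAJA1 alone passed among 19 measured cytosolic heat shock and cold genes, whose median difference was 0.07 log2 units (−0.02 where arrays were not centred). HSPA8, the constitutive partner, averaged 5158 ± 370 in long days and 5146 ± 338 in short days. RBM3, an RNA-binding protein induced by mild cold, averaged 131 ± 26.7 in long days and 218 ± 73.5 in short days, and did not pass (adjusted p = 0.76).

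EPAS1 encodes a hypoxia-inducible factor that is abundant in endothelium. Its dimmer probe set had 380 and 370 at ZT18 and 400 and 394 at ZT22 in long days, against 185 and 126 at ZT18 and 81.1 and 90.2 at ZT22 in short days, and rose by 1.76 ± 0.21 log2 units (adjusted p = 7.6e-04, limma). The brighter EPAS1 probe set averaged 1242 ± 218 in long days and 945 ± 65.3 in short days, a difference of 0.38 ± 0.15 log2 units that did not pass (adjusted p = 0.85). The 2 probe sets of this gene thus gave the same direction with different sizes. On a list of 12 endothelial genes none passed, 8 had a positive difference and the median was 0.26 log2 units. SLC2A1, the glucose transporter of the blood-brain barrier, had the largest difference there: 209 and 187 at ZT18 and 312 and 242 at ZT22 in long days, against 56.9 and 114 at ZT18 and 166 and 43.0 at ZT22 in short days. These 1.499 ± 0.33 log2 units did not pass (adjusted p = 0.27).

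CCK, POMC and CALCA, all genes of peptide hormones or transmitters, passed the test with adjusted p closer to 0.05. Each call was lost when most or any of the single arrays were left out. The differences without single arrays kept their direction, which had to follow because the long-day and short-day arrays do not overlap. These differences ran from 1.13 to 1.56 log2 units for CCK, from −1.41 to −1.06 for POMC and from 1.19 to 1.47 for CALCA. CCK, the cholecystokinin gene, had 817 and 389 at ZT18 and 555 and 817 at ZT22 in long days, against 246 and 264 at ZT18 and 207 and 284 at ZT22 in short days. CCK rose by 1.31 ± 0.21 log2 units (adjusted p = 0.032, limma), and lost the call when any array other than replicate 2 of long days at ZT18 was left out (adjusted p from 0.0583 to 0.266). A second CCK probe set, near background, differed by −0.22 ± 0.49 log2 units. POMC, the precursor of the appetite-suppressing melanocortins and of corticotropin, had 178 and 162 at ZT18 and 126 and 76.9 at ZT22 in long days, against 344 and 288 at ZT18 and 378 and 263 at ZT22 in short days. POMC fell by 1.28 ± 0.22 log2 units (adjusted p = 0.043) and lost the call without each of the 8 arrays (adjusted p from 0.0698 to 0.266). CALCA, the gene of calcitonin and of the vasodilator peptide CGRP, had 312 and 217 at ZT18 and 270 and 209 at ZT22 in long days, against 90.7 and 113 at ZT18 and 125 and 76.6 at ZT22 in short days. It rose by 1.32 ± 0.21 log2 units (adjusted p = 0.024) and lost the call without any array except replicate 2 of long days at ZT18 and replicate 1 of short days at ZT22 (adjusted p from 0.0762 to 0.147). The other 2 CALCA probe sets, averaging 40.3 and 33.6 in long days and 34.6 and 32.3 in short days, differed by 0.19 ± 0.33 and 0.05 ± 0.34 log2 units.

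Of 23 measured feeding and metabolic peptide genes, CCK and POMC passed (1 higher, 1 lower) and the median difference was 0.14 log2 units. AGRP and NPY, the appetite-stimulating peptides of the neurons next to the POMC cells, averaged 60.3 ± 19.8 and 2763 ± 795 in long days, against 53.8 ± 11.9 and 3055 ± 196 in short days. MC4R, the melanocortin receptor through which POMC products act, averaged 332 ± 35.03 in long days and 205 ± 44.5 in short days with no overlap, but did not pass (0.71 ± 0.18 log2 units, adjusted p = 0.62, limma). VIP, the peptide that drives prolactin release in birds, averaged 2090 ± 308 in long days and 1845 ± 164 in short days.

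The last 3 named genes are not neuropeptides. CCNG2, a cyclin linked to cell cycle arrest, had 260 and 319 at ZT18 and 103 and 131 at ZT22 in long days, against 503 and 623 at ZT18 and 776 and 321 at ZT22 in short days. The highest long-day and the lowest short-day array were nearly level, and CCNG2 fell by 1.53 ± 0.26 log2 units (adjusted p = 0.043, limma). It lost the call without any array except replicate 1 of short days at ZT18 and replicate 2 of short days at ZT22 (adjusted p from 0.0518 to 0.310). STON2, an adaptor of synaptic vesicle endocytosis, had 438 and 365 at ZT18 and 334 and 369 at ZT22 in long days, against 154 and 172 at ZT18 and 156 and 244 at ZT22 in short days. STON2 rose by 1.07 ± 0.18 log2 units (adjusted p = 0.043) and lost the call without any array except replicate 2 of short days at ZT22 (adjusted p from 0.0885 to 0.269). Neither gene's second probe set showed the change: the difference was −0.13 ± 0.29 log2 units for CCNG2 and −0.17 ± 0.41 for STON2.

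RPL19 encodes a protein of the large ribosomal subunit. Its dimmer probe set had 443 and 510 at ZT18 and 265 and 458 at ZT22 in long days, against 935 and 824 at ZT18 and 1172 and 871 at ZT22 in short days, and fell by 1.21 ± 0.19 log2 units (adjusted p = 0.024, limma). The call was lost without any array except replicate 2 of long days and replicate 2 of short days at ZT18 (adjusted p from 0.0615 to 0.168). The brighter RPL19 probe set averaged 2946 ± 148 in long days and 3046 ± 215 in short days, a difference of −0.05 ± 0.13 log2 units. Of 66 genes of cytosolic ribosomal proteins, each represented by its brightest probe set, none passed, 10 had a positive difference and the median was −0.14 log2 units (−0.17 after quantile normalization), against 0.03 over all genes. The median of the same list was also −0.14 at the earlier hours. RPS12, RPS15 and RPL17 differed by −0.50 ± 0.19, −0.40 ± 0.17 and −0.35 ± 0.16 log2 units, with adjusted p between 0.85 and 0.88.

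Of the probe sets past the test, 4 have no gene symbol, 3 of them higher and 1 lower, and are called a, b, c and d here in order of p. Probe set a had 322 and 343 at ZT18 and 279 and 404 at ZT22 in long days, against 71.0 and 101 at ZT18 and 121 and 119 at ZT22 in short days, and rose by 1.73 ± 0.20 log2 units (adjusted p = 6.7e-04, limma). Probe set b had 342 and 295 at ZT18 and 177 and 264 at ZT22 in long days, against 22.7 and 80.01 at ZT18 and 65.5 and 74.0 at ZT22 in short days. It rose by 2.26 ± 0.33 log2 units (adjusted p = 0.013) and lost the call without either long-day array at ZT18 or replicate 2 of long days at ZT22 (adjusted p from 0.0774 to 0.115). Probe set c, the one that fell, averaged 260.5 ± 59.8 in long days and 543 ± 42.1 in short days. Its call did not hold without 6 of the 8 arrays (adjusted p from 0.0653 to 0.098), and that of probe set d was lost without each of the 8.

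The next 5 probe sets in order of p missed the threshold with an adjusted p of 0.052 to 0.073. Where 2.14% of all probe sets were higher in long days without overlap, these 5, picked by p on the same arrays, all were. Among them HSP90B1, the HSP90 of the endoplasmic reticulum, had 1651 and 1924 at ZT18 and 1737 and 2206 at ZT22 in long days, against 1292 and 918 at ZT18 and 899 and 1087 at ZT22 in short days. ABHD3, a phospholipase, averaged 636 ± 125 in long days and 321 ± 56.9 in short days, and TESC, a calcium-binding regulator of sodium-proton exchange, 773 ± 164 in long days and 404 ± 63.5 in short days. With the replicate number as a further covariate, these 5 probe sets had an adjusted p from 0.022 to 0.032 (limma), so their place beside the threshold depends on the model.

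The late hours hold one time when only long-day birds were in the light and one when both groups were in the dark. At ZT18, 5 probe sets passed (0.013%, with 4.09% at an unadjusted p under 0.05): CGA, TSHB and probe sets a and b were higher and DIO3 was lower in long days. At ZT22, 3 passed (0.0078%, with 4.27% at an unadjusted p under 0.05): CGA and TSHB rose and DIO3 fell. These tests used a model of all 12 groups of the study, with 2 arrays against 2 at each time. CGA differed by 3.38 ± 0.31 log2 units at ZT18 and by 2.74 ± 0.31 at ZT22 (adjusted p = 3.1e-06 and 1.6e-04, limma). DIO3 differed by −4.21 ± 0.41 at ZT18 and −3.48 ± 0.41 at ZT22. TSHB was at least 16.7-fold higher at ZT18 and at least 16.1-fold higher at ZT22, against short-day arrays that were all below background. At ZT18 the TSHB call was lost without any one of the 4 arrays of that time (adjusted p up to 0.30). DNAJA1 and KLF9 at ZT18 (1.53 ± 0.28 and 1.83 ± 0.35 log2 units, adjusted p = 0.096 and 0.13) and the dimmer EPAS1 probe set and DIO2 at ZT22 (2.22 ± 0.40 and 1.94 ± 0.35, adjusted p = 0.079 for both) were next in order and did not pass.

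**Figure D2:**
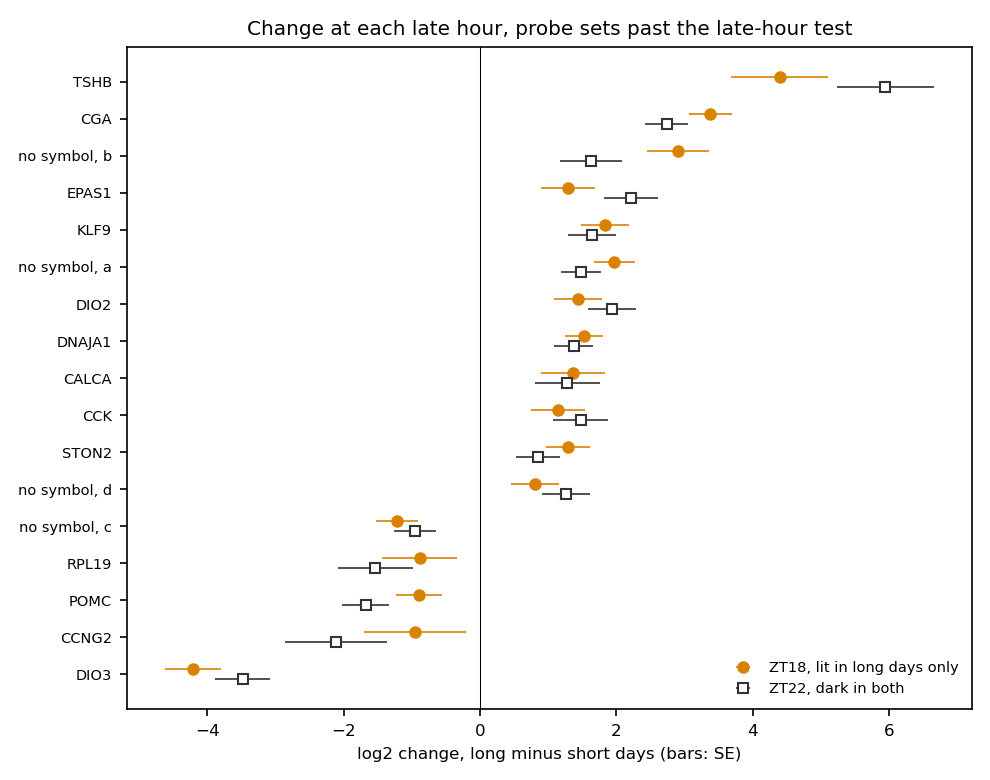
Log2 difference between long and short days at ZT18 and at ZT22 for the 17 probe sets past the late test (points, bars are SE from the model of 12 groups; EPAS1 and RPL19 by their dimmer probe sets, a to d without a gene symbol). Each of the 17 has the same sign at both times, as it must where the late arrays do not overlap. DIO3 is near −4 at both. The fitted values of TSHB rest on short-day arrays below background and are no measure of its size.

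No difference between ZT18 and ZT22 in the size of the photoperiod change passed the test (0 of 38439, limma; 1368 or 3.56% had an unadjusted p under 0.05). All 17 probe sets kept one direction over the 2 times, which had to follow because their long-day and short-day arrays do not overlap. EPAS1's dimmer probe set differed by 1.30 ± 0.40 log2 units at ZT18 and 2.22 ± 0.40 at ZT22, CCNG2 by −0.96 ± 0.75 and −2.10 ± 0.75 in the same order, and POMC by −0.89 ± 0.34 and −1.68 ± 0.34. The differences between the times were −0.92 ± 0.56 for EPAS1, 1.15 ± 1.06 for CCNG2 and 0.79 ± 0.48 for POMC (SE). The 5 genes with the smallest p for the difference (CCL1, ANKRD6, COL17A1, HELZ2 and TMEM185B) were dim, above background on 2 to 5 of the 8 arrays, and had an adjusted p of 0.9999. EGR1, an activity-dependent transcription factor, differed by 1.46 ± 0.69 log2 units at ZT18, in the light of long days, and by 0.47 ± 0.69 at ZT22, and the difference between the times was 0.99 ± 0.98 (unadjusted p = 0.32). At ZT10 and ZT14, also lit in long days only, EGR1 differed by 1.85 and −1.22 log2 units. Its short-day arrays at ZT10 had 608 and 99.6, and its long-day arrays at ZT14 had 698 and 59.4, so each of these differences rests on a widely spread pair.

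The late changes were looked up in the 16 arrays of the earlier hours, which share no array with the late ones. All 17 probe sets had the same direction there in the mean over the 4 times, and 13 had it at each of the 4. The exceptions were CALCA, STON2, CCNG2 and the dimmer RPL19 probe set. Of the 17, 12 (70.6%) passed the test at the earlier hours, where 35 of 38439 (0.0911%) did, 22 higher (0.0572%) and 13 lower (0.0338%), and 5.07% had an unadjusted p under 0.05. Those 12 were 34.3% of the 35. DIO3 differed by −4.40 ± 0.20 log2 units over the earlier hours (adjusted p = 8.7e-13, limma), DIO2 by 2.12 ± 0.17, KLF9 by 1.90 ± 0.18, CCK by 1.36 ± 0.20, DNAJA1 by 1.08 ± 0.14 and POMC by −0.91 ± 0.17, all past the test. For DNAJA1 the difference was uneven, 0.40, 0.68, 1.35 and 1.87 at ZT2, ZT6, ZT10 and ZT14. Its short-day mean was 2389 at ZT2 and 1231 at ZT10, and its long-day mean 3151 and 3139. TSHB also passed (adjusted p = 1.6e-07): its 8 long-day arrays had 104 to 405, and 1 of its 8 short-day arrays, which had 3.61 to 26.1, exceeded background. The other 5 late probe sets did not pass at the earlier hours: CALCA, STON2, CCNG2, the dimmer RPL19 probe set and 1 without a symbol.

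**Figure D3:**
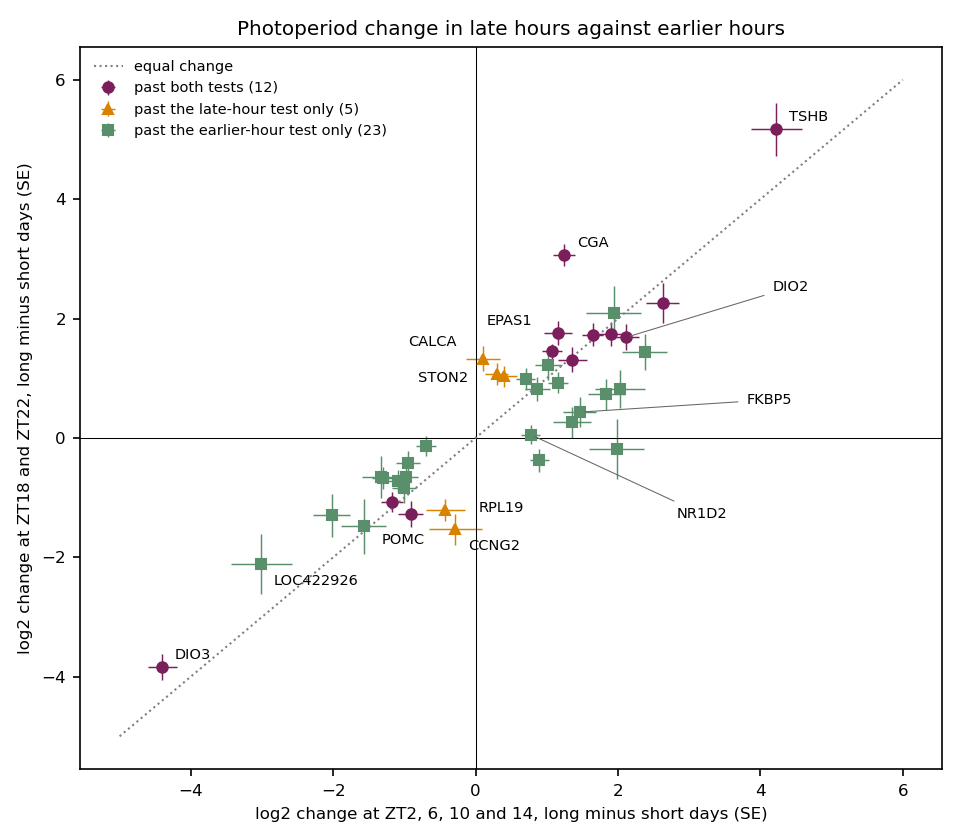
Log2 difference between long and short days at ZT18 and ZT22 (vertical axis) against that at ZT2 to ZT14 (horizontal axis) for the probe sets past either test, with SE bars; the dotted line marks equal change. Of these, 12 passed both tests, 5 the late one only and 23 the earlier one only, and CGA stands farthest above the line among those past both.

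CGA was the 1 probe set whose change differed between late and earlier hours past the test (0.0026% of 38439, with 4.09% at an unadjusted p under 0.05). The long-day excess was 1.81 ± 0.27 log2 units larger at ZT18 and ZT22 than over ZT2 to ZT14 (adjusted p = 0.0205, limma). In long days the arrays at ZT2 had 874 and 863, those at ZT6 2078 and 1743, those at ZT10 1548 and 1367 and those at ZT14 2497 and 1422, and the late ones 990 to 1797. Short-day arrays had 668 and 1025 at ZT2, 1126 and 1330 at ZT6 and 1024 and 569 at ZT10, but 199 and 174 at ZT14, already as low as the late values of 143 to 218. The difference was thus 0.07 log2 units at ZT2, then 0.64, 0.93 and 3.34 at the next 3 times, and the short-day level moved more over the day than the long-day level. The call was lost when any of 6 of the 8 late arrays was left out, with a difference of 1.66 to 1.88 log2 units and an adjusted p from 0.061 to 0.25. For TSHB such a course could not be followed, since its short-day values, between 2.33 and 26.1 over the 6 times, exceeded background on 1 array, and its long-day values lay between 104 and 150 at ZT2, ZT6 and ZT10 and between 191 and 430 from ZT14 on.

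**Figure D4:**
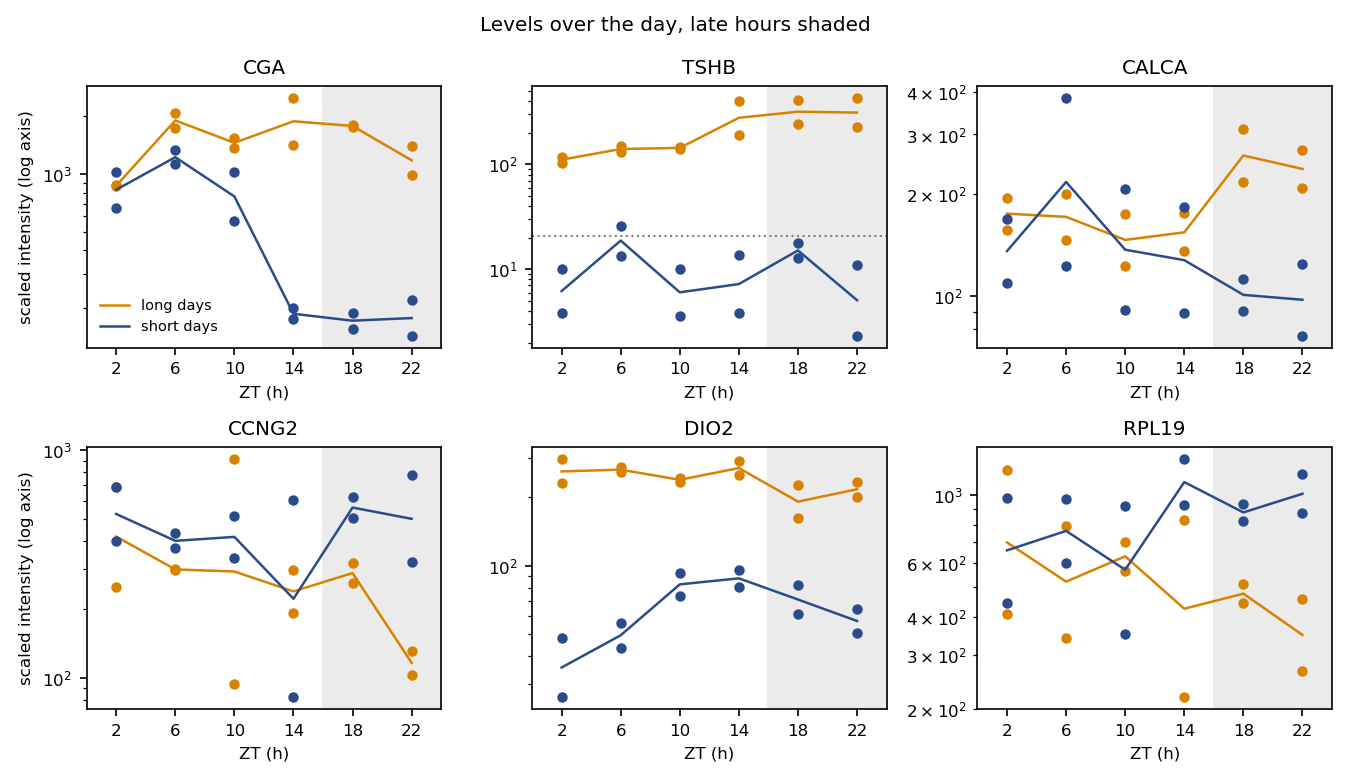
Scaled intensity (log axis) of CGA, TSHB, CALCA, CCNG2, DIO2 and RPL19 (dimmer probe set) at the 6 times in long and short days; points are arrays, lines join geometric means, and the late hours are shaded. Short-day CGA drops at ZT14 and stays at 143 to 218 in the late hours, while long-day CGA is at 863 or more at every time.

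For the 5 probe sets that passed late but not earlier, the difference between the periods was not past the test, so they are not shown to be late-hour changes. CALCA differed by 0.10 ± 0.24 log2 units at the earlier hours, and its late excess of 1.22 ± 0.41 had an unadjusted p of 0.0064. Its long-day arrays ran from 123 to 200 at ZT2 to ZT14 and from 209 to 312 late, and its short-day arrays from 89.2 to 385 at ZT2 to ZT14 and from 76.6 to 125 late. STON2 differed by 0.30 ± 0.16 at the earlier hours, with a late excess of 0.77 ± 0.28 (unadjusted p = 0.011). CCNG2 scattered widely at the earlier hours, from 94.1 to 911 in long days and from 82.0 to 686 in short days, and its late excess of −1.24 ± 0.65 had an unadjusted p of 0.067.

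Past the earlier test but not the late one were 23 probe sets, among them those of FKBP5, NR1D2, BCL6, TESC, FABP7, GREB1, ABHD3 and PHKA1. At the earlier hours BCL6 differed by −1.30 ± 0.15 log2 units, TESC by 1.16 ± 0.14, FABP7 by −1.005 ± 0.17 and GREB1 by 1.02 ± 0.19. FKBP5, a glucocorticoid-induced co-chaperone, was higher in long days at the earlier hours (1.46 ± 0.23 log2 units, adjusted p = 0.0027, limma), and had 67.9 and 64.5 at ZT18 and 89.4 and 129 at ZT22 in long days, against 66.8 and 62.0 at ZT18 and 66.0 and 56.2 at ZT22 in short days, a late difference of 0.43 ± 0.25. The other 2 FKBP5 probe sets past the earlier test differed late by 0.82 ± 0.32, with no overlap and an unadjusted p of 0.020, and by 0.26 ± 0.26. NR1D2, a clock repressor, differed by 0.77 ± 0.14 at the earlier hours (adjusted p = 0.012), and averaged 783 ± 145 late in long days and 753 ± 120 late in short days. Neither gap between the periods passed (FKBP5 −1.03 ± 0.40, unadjusted p = 0.016; NR1D2 −0.72 ± 0.24, unadjusted p = 0.0057). Of the 35 probe sets past the earlier test, 33 had the same direction late and 27 a late unadjusted p under 0.05.

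Genes of other processes were described through lists, each set beside the 13009 genes of the array, of which 53.2% had a positive difference, 3.96% were higher and 2.5% lower with an unadjusted p under 0.05. No member of the lists in this and the next 3 paragraphs passed the adjusted test except those named above. Of 16 clock genes, 11 had a positive difference, 3 were higher with an unadjusted p under 0.05 and the median was 0.31 log2 units late, and between −0.23 and 0.11 at the 4 earlier times. Those 3 were ARNTL and NPAS2, both of the positive arm of the clock, and the clock kinase gene CSNK1D. CLOCK, also of the positive arm, averaged 165 ± 27.3 in long days and 185 ± 46.6 in short days (−0.16 ± 0.21 log2 units). ARNTL had 147 and 130 at ZT18 and 71.5 and 78.6 at ZT22 in long days, against 72.3 and 47.6 at ZT18 and 52.0 and 38.3 at ZT22 in short days (0.99 ± 0.25 log2 units, adjusted p = 0.62, limma). NPAS2 had 80.1 and 54.5 at ZT18 and 55.0 and 76.2 at ZT22 in long days, against 32.4 and 49.0 at ZT18 and 21.5 and 20.4 at ZT22 in short days, with no overlap (1.18 ± 0.32, adjusted p = 0.67). Of the negative arm, PER3 averaged 18.2 ± 2.23 in long days, near background, and 29.4 ± 4.82 in short days, CRY1 236 ± 63.6 in long days and 179 ± 57.7 in short days, and PER2 28.2 ± 3.28 in long days and 30.4 ± 14.7 in short days. The median of the list was −0.18 in replicate 1 arrays alone and 0.46 in replicate 2 arrays alone.

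Of 17 immediate early genes, which neurons switch on within minutes of being active, 16 had a positive difference, 5 were higher and none lower with an unadjusted p under 0.05, and the median was 0.28 log2 units. EGR1 had 1007 and 959 at ZT18 and 727 and 603 at ZT22 in long days, against 466 and 273 at ZT18 and 401 and 569 at ZT22 in short days (0.97 ± 0.21, adjusted p = 0.30, limma). FOS had 20.96 and 10.03 at ZT18 and 25.9 and 19.5 at ZT22 in long days, above background on 3 of 4 arrays, against 2.12 and 15.3 at ZT18 and 2.46 and 2.49 at ZT22 in short days, above background on 0 of 4. MYC, HOMER1 and CREM differed by 0.77 ± 0.27, 0.55 ± 0.20 and 0.43 ± 0.18 log2 units, with adjusted p between 0.84 and 0.85. The list's summed level, which includes EGR1 with the values above, ran from 1920 to 2318 over the long-day arrays and from 1297 to 1572 over the short-day arrays.

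The list of protein folding in the endoplasmic reticulum had a median of 0.34 log2 units late, and of −0.22, −0.24, 0.08 and 0.09 at ZT2, ZT6, ZT10 and ZT14. Of its 17 genes, 13 had a positive difference, and 6 were higher and 1 lower with an unadjusted p under 0.05. Those higher were HSP90B1 (0.85 ± 0.15), HSPA5, the chaperone BiP (0.44 ± 0.13), the disulfide isomerases PDIA3, PDIA4 and PDIA6 (0.36 ± 0.15, 0.67 ± 0.24 and 0.41 ± 0.14) and CRELD2 (0.62 ± 0.21), and the lower one was the co-chaperone DNAJB11 (−0.47 ± 0.22). The difference of HSP90B1 was −0.56, −0.51, 0.12 and 0.51 at these 4 times and that of HSPA5 −0.42, −0.45, 0.42 and 0.43, so both were positive before the late hours. Between the late hours and the mean of the earlier ones, HSP90B1 differed by 0.96 ± 0.25 (unadjusted p = 6.8e-04), which did not pass. Of 14 glucocorticoid and fasting-induced genes, 11 had a positive difference with a median of 0.28 log2 units. KLF9 passed, NR3C1, the glucocorticoid receptor, was higher by 0.59 ± 0.24, and BCL6, a transcriptional repressor, averaged 574 ± 153 in long days and 897 ± 108 in short days.

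Reproductive genes held 2 members with an unadjusted p under 0.05 that were higher in long days, among 16 measured with a median of 0.16 log2 units. Of the 16, 9 had a positive difference. The median was 0.47 in replicate 1 arrays alone and −0.25 in replicate 2 arrays alone. CYP19A1, the aromatase that makes oestrogen, had 52.0 and 47.2 at ZT18 and 47.8 and 51.3 at ZT22 in long days, against 22.03 and 27.6 at ZT18 and 13.2 and 16.7 at ZT22 in short days, where 2 of 4 arrays exceeded background (1.37 ± 0.35 log2 units, adjusted p = 0.62, limma). GREB1, an oestrogen-responsive gene, had 103 and 82.4 at ZT18 and 94.5 and 89.2 at ZT22 in long days, against 35.02 and 31.7 at ZT18 and 43.2 and 49.9 at ZT22 in short days (1.23 ± 0.25, adjusted p = 0.18). The groups did not overlap in either gene, as in 3.65% of all probe sets. TH, the dopamine synthesis enzyme, was the 1 member lower with an unadjusted p under 0.05. NPVF, the gene of gonadotropin-inhibitory hormone, averaged 563 ± 154 in long days and 536 ± 333 in short days. GNRH1 exceeded background on 0 of 8 arrays, so its level could not be compared.

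Energy and growth lists had medians between −0.08 and 0.14 log2 units, against 0.03 over all genes. Of 22 genes of glycolysis and glycogen use, 4 were higher and 1 lower with an unadjusted p under 0.05 (SLC2A1, PHKA1, GPI and PYGB; LDHB) and the median was 0.13 log2 units. Of 64 respiratory chain genes 3 were higher and 1 lower, with a median of 0.01 (−0.02 after quantile normalization). No gene of the proteasome (29 measured, 21 with a positive difference, median 0.14) had an unadjusted p under 0.05. The same held for cholesterol synthesis (17 measured, 7 with a positive difference, median −0.08). Of 27 genes of neurite outgrowth and the perineuronal net, NCAM2 and PLXNA1 were higher by 0.70 ± 0.24 and 0.62 ± 0.22 log2 units and DCLK1 lower by 0.42 (−0.42 ± 0.13), and the median was 0.05 (−0.05 where arrays were not centred).

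**Figure D5:**
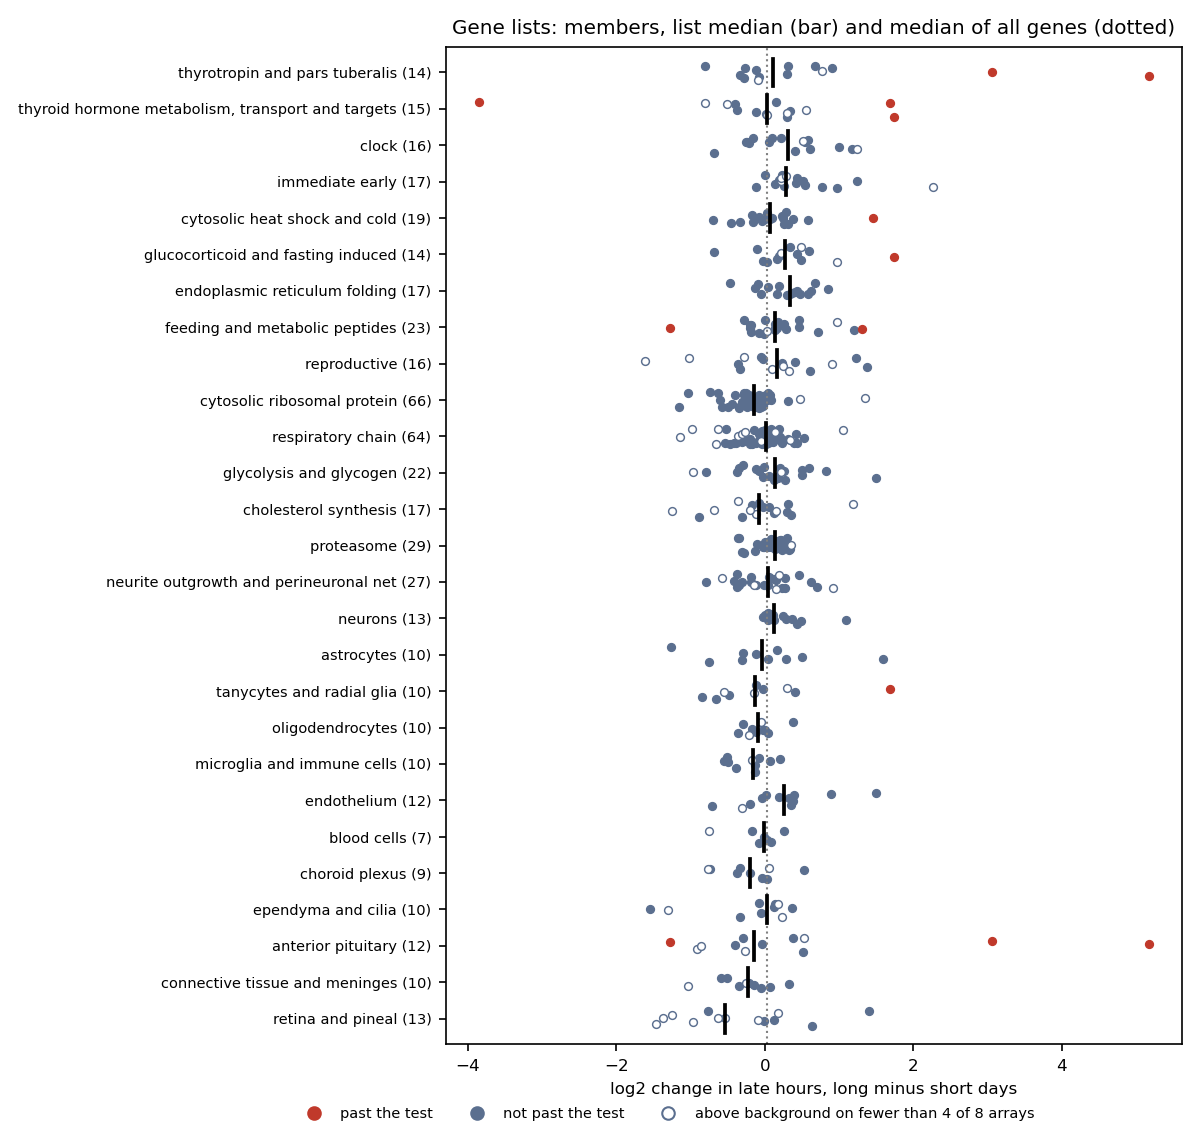
Log2 difference between long and short days at ZT18 and ZT22 for every measured member of the 27 gene lists (number measured in brackets); bars are list medians and the dotted line is the median of all genes, 0.03. Filled red points passed the test, and open points exceeded background on fewer than 4 of 8 arrays; list medians run from −0.53 to 0.34.

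Markers of the cell types that the tissue block can hold were checked beside these results, and their part in the results was not tested. Of 13 neuronal markers, 12 had a positive difference, 4 were higher with an unadjusted p under 0.05 and the median was 0.12 log2 units. The largest was STMN3, a tubulin regulator, with 364 and 355 at ZT18 and 221 and 412 at ZT22 in long days, against 151 and 131 at ZT18 and 138 and 210 at ZT22 in short days (1.09 ± 0.22, adjusted p = 0.12, limma). The neuronal list's summed level ran from 26676 to 34577 over long-day arrays and from 24706 to 28374 over short-day arrays. SNAP25 and STMN2, which are bright in all neurons, differed by 0.07 ± 0.14 and 0.05 ± 0.14.

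Tanycyte and radial glia markers, the cells in which DIO2 and DIO3 are made, had a median of −0.14 log2 units over 10 measured genes. DIO2 was the only member past the test. VIM, the intermediate filament of tanycytes, had 2175 and 2591 at ZT18 and 1990 and 2921 at ZT22 in long days, against 5062 and 3473 at ZT18 and 3050 and 3736 at ZT22 in short days (−0.65 ± 0.17, adjusted p = 0.63, limma). FABP7, a lipid carrier of radial glia, averaged 216 ± 82.4 in long days and 377 ± 106 in short days. The summed level of the list ran from 4662 to 6045 over long-day arrays and from 6090 to 8023 over short-day arrays. This sum includes the bright VIM, with the values above, and DIO2, so it does not describe the list as a whole. GPR50 and CRYM lay near background.

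The remaining marker lists had no member past the test. Medians were −0.04 log2 units for 10 astrocyte genes (ID3 higher, SPARCL1 and CLU lower with an unadjusted p under 0.05), −0.09 for 10 oligodendrocyte genes, −0.16 for 10 microglial and immune genes (CD74 lower) and −0.01 for 7 blood genes. They were −0.20 for 9 choroid plexus genes (AQP1 lower), 0.03 for 10 ependymal and ciliary genes (DNAI1 lower, median −0.06 where arrays were not centred), −0.23 for 10 genes of connective tissue and meninges (COL1A1 and FN1 lower) and −0.53 for 13 retinal and pineal genes, 8 of which were above background on fewer than 4 of 8 arrays. Summed over the choroid plexus list, the arrays ran from 1203 to 1521 in long days and from 1338 to 1803 in short days. HBA1, a globin of the red cells left in the tissue, averaged 6513 ± 981 in long days and 6201 ± 1345 in short days.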

How the data were processed

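RNA of the mediobasal hypothalamus was labelled and hybridised to chicken microarrays, 1 array per pool of birds. The deposited intensity values were made with GCOS 1.2, per the submitters' processing notes; which algorithm and scaling it applied is not stated in what was used here. Deposited intensities ran from 0.0275 to 13690, and array medians, from 10.9 to 21.0, served as the measure of array brightness; the number of arrays limits the precision. From them, log2(intensity + 1.497) was computed (10% of the overall median) and centred on each array's median. Of 38535 probe sets, 96 controls were left out; 27168 had 1 gene symbol, 177 several and 11094 none, by the platform annotation. Of 13009 genes, 10720 had their symbol in the Coturnix japonica 2.1 annotation. A gene was represented by its brightest probe set. The late effect was fitted with limma 3.58.1 in R 4.3.3 on 8 arrays, with ZT as a covariate, a mean-variance trend and Benjamini-Hochberg adjustment over 38439 probe sets. Effects at single times and over the earlier hours, and differences between periods, came from a model of 12 groups on 24 arrays. Figures were drawn with matplotlib 3.10.9.

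The named genes were the 15 highest and 15 lowest past the late test, up to 8 per other contrast (the 5 smallest p where fewer passed), up to 4 per list, and a set of photoperiod genes; the rule allowed 2 probe sets without a symbol in each direction, and the text gives 1 more that was higher, by letter, because all 17 are described. Other genes in the text (THRA, THRB, DIO1, HSPA8, SNAP25, STMN2, GH, PRL, POU1F1, GHRHR, FSHB, GPR50, CRYM and further list members) were chosen as members of the lists after their values were seen. The comparison, the 27 lists and the background measure were chosen with earlier results of these data known. The fits were tested on simulated data. The late fit made 3 false calls, the ZT18 test 4 and the test of late against earlier hours 1. Among the brightest probe sets, the ZT18 test recovered 47% of changes of 2 log2 units and 5% of changes of 1 log2 unit. Alternatives were the pseudocount, centring, quantile normalization, filters on dim probe sets, the variance model, array weights, the replicate block, single array sets, other designs and leaving out each array. Chicken probes can bind quail transcripts unequally, so levels of different genes were not compared.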

Additional observations from a re-analysis of the deposited data

Results flagged for a closer look

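The lowest short-day value of probe set b, which has no gene symbol, at 22.7 in replicate 1 at ZT18, lay far from the other 3 short-day arrays of the late hours (80.01, 65.5 and 74.0), with a gap of 0.842 of the range, past Dixon's 95% critical value. It was 1 outlying value in 58 groups of 4 examined, and chance gives about 1 in 20. CGA had a larger difference between long and short days in the late hours than earlier, by 1.81 log2 units.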

How the results depend on the processing

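None of the 17 late changes turned direction under the 28 alternatives run. With single arrays left out and in single array sets this had to follow, because the arrays of the 17 do not overlap. The count of 17 became 8 without centring (7 higher, 1 lower), 8 with the lowest 50% of probe sets left out, 0 without the variance trend (2141 with an unadjusted p under 0.05), 2 without the trend and with the lowest 50% left out, 9 in the fit of 12 groups, 32 in replicate 1 arrays alone, 60 with values under background raised to it, and 9 to 14 with single arrays left out. The count of 5 at ZT18 became 3 with a pseudocount of 16, 2 without centring, 2 without the trend, 8 with the replicate block and quantile normalization, and 3 to 7 with single arrays left out. The count of 3 at ZT22 became 0 without the trend, 5 with array weights, 5 with 4 group means on 8 arrays, 6 with the replicate block, 10 with the block and quantile normalization, and 3 to 11 with single arrays left out (11 without replicate 1 and 7 without replicate 2 of short days at ZT22). The count of 1 for late against earlier hours became 0 with a pseudocount of 16, without centring, without the trend, and without the trend and the lowest 50%, 2 with quantile normalization, 2 with the block and quantile normalization, and 0 to 1 with single arrays left out; for ZT18 against ZT22 it was 0 to 1. The 35 calls at the earlier hours became 20 with a pseudocount of 16, 9 without centring, 10 without the trend, 55 with the block and 70 with the block and quantile normalization. Deviations of same-numbered arrays correlated at 0.033 to 0.042, so no pairing was assumed, but the numbers do mark array sets: replicate 1 was brighter in 12 of 12 groups (1.22 to 1.85 times) and had a lower GAPDH 3′/5′ ratio in 12 of 12. The replicate block gave 25 late calls, among them all 17. Single genes that did not pass and turned sign were PER2 (−0.017 with a pseudocount of 16, −0.31 in replicate 1 arrays, −0.19 with values raised to background, −0.0056 with the ACTB ratio as a covariate), NR1D2 (−0.038 without centring, −0.29 in replicate 1 arrays), HBA1 (−0.0062 without centring), B2M, NPY, SLCO1C1 and TSHR (0.30, 0.11, −0.14 and 0.22 in replicate 1 arrays), CLOCK, DNAH9, HBE and NPVF (0.046, 0.043, 0.25 and −0.46 in replicate 2 arrays) and AANAT (−0.13 with values raised to background). With single arrays left out, differences ran from −0.39 to 0.42 for AANAT, −0.086 to 0.33 for AGRP, −0.76 to 0.26 for B2M, −0.26 to 0.048 for CLOCK, −0.073 to 0.17 for HBA1, −0.70 to 0.19 for HBE, −0.086 to 0.44 for HBZ, −0.10 to 0.61 for NPVF, −0.051 to 0.16 for NR1D2, −0.43 to 0.45 for PER2, −0.50 to 0.055 for SOX10 and −0.65 to 0.035 for TSHR. The cause of these shifts was not tested. The ACTB covariate, the raised background, the filter without the trend and leaving out replicate 2 of long days at ZT14 were chosen after seeing the data.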
